A study of Mus musculus with 15 samples.

Results

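The hippocampus of mice that had just retrieved a contextual fear memory (RT) was compared with that of handled, untrained controls (CC) by RNA-seq of polyA-selected RNA. The 10 libraries compared, 5 of RT and 5 of CC, are part of a series of 15, and the other 5 were made after training itself (fear conditioning, FC). All mice were wild-type C57BL/6J males, 2 months old, housed singly and handled daily for 3 days. By the study's methods each library held RNA of both hippocampi of 1 mouse and the mice of a group were run as separate experiments; the series description counts animals and days differently, so n counts libraries. RT mice were placed in a chamber, received a foot shock of 1.5 mA lasting 2 s that ended 2.5 min after placement, were returned to the chamber 24 h later for a 5-min test, and gave tissue 30 min after that test. FC mice had the same training and gave tissue 30 min after it, and CC mice were handled, never trained, and gave tissue at a matching hour. CC mice differed from RT mice in both the training and the test, so the effects of a day-old training, of the chamber and of retrieval cannot be told apart in RT vs CC. Libraries carry the numbers 3, 5, 6, 7 and 8 in every group, and each sequencing lane held 1 library of each group. Genes enter the comparison when more than 10 reads were counted in more than 5 of the 15 libraries, which 18008 of the 37310 genes in the table did.

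Neurons that fire strongly during learning or recall switch on immediate early genes within minutes, without new protein synthesis, through calcium and cAMP signals that reach CREB and serum response factor on the DNA. The first wave holds transcription factors such as Fos and the Egr and Nr4a families, effectors that act at the synapse such as Arc, and phosphatases and adaptors that turn the MAP kinase signal off again. Handling, a new place and a foot shock also raise circulating corticosterone, whose receptor directly induces a further set of genes.

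Unless stated otherwise, a level is a read count scaled to the upper quartile of its library (UQ count), given in the order of the library numbers, and a fold change is a log2 value ± its standard error from edgeR, fitted to the 15 libraries together with 5 RUVs factors of unwanted variation. A gene is called when its FDR, the Benjamini-Hochberg adjusted p of edgeR's likelihood ratio test over the 18008 tested genes, is at most 0.01. The totals per library ran from 35731428 to 61275293 reads in RT and from 39992029 to 62555543 in CC, and mitochondrial reads made up 4.44% ± 0.2 (SD, n = 5) of RT and 4.57% ± 0.287 (SD, n = 5) of CC libraries (two-sided exact permutation test, p = 0.397). RT3 stood apart from the other RT libraries: the interquartile range of its relative log expression was 0.435 (natural log), against 0.0796 to 0.114 in the other RT and 0.0954 to 0.114 in the CC libraries. The only library of the series further out was FC3, at 0.825. Markers of CA1 (Wfs1, Fibcd1), dentate granule cells (Prox1, C1ql2) and CA3 were present in the control libraries, and none of the markers of hippocampal subfields was called.

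Memory retrieval was accompanied by higher levels of 156 genes and lower levels of 26, which together are 1.01% of the tested genes (0.866% higher and 0.144% lower). The median rise among called genes was 0.36 and the median fall -0.31 on the log2 scale, 17 called genes changed by more than 1 and 122 by less than 0.5. Of the 182 called genes, 159 were protein coding. In 81 of the risen genes every RT library lay above every CC library, and in 6 of the lower genes every RT library lay below; over all tested genes 0.9% and 0.455% were separated in this way. The quasi-likelihood test of edgeR called 66 of the 182 (64 higher, 2 lower, which are 0.367%, 0.355% and 0.0111% of the tested genes in all and by direction), and DESeq2 with the same factors called 85 (70 higher, 15 lower; 0.472%, 0.389% and 0.0833%). Without any factor of unwanted variation 19 genes were called (18 higher, 1 lower), 0.106% of those tested (0.1% and 0.00555% by direction), and all of them were among the 182.

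**Figure D1:**
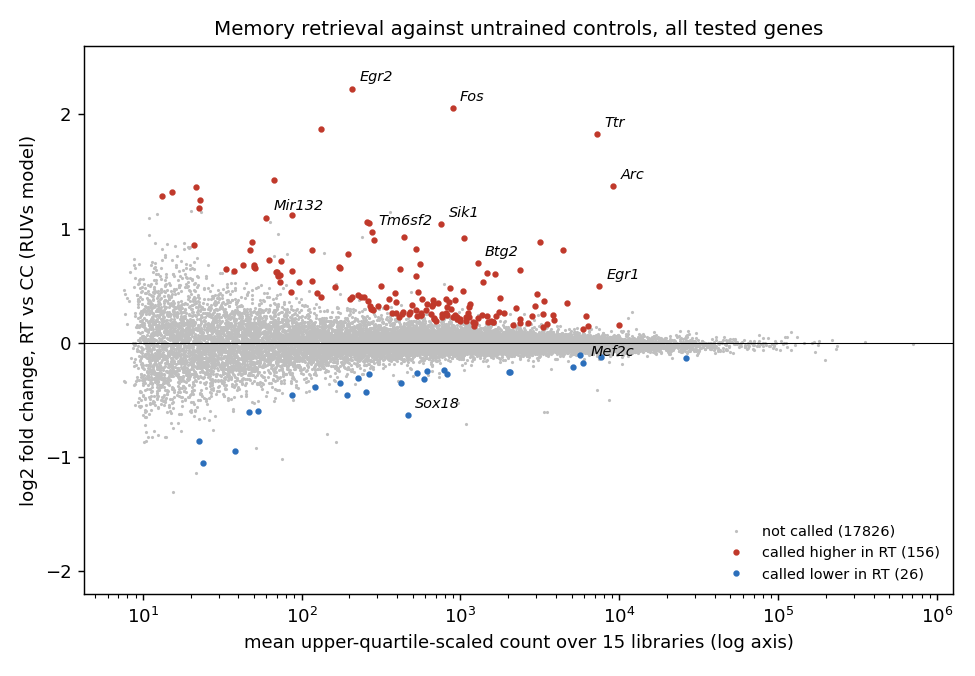
Log2 fold change of RT against CC in the RUVs model (vertical axis) against the mean UQ count over the 15 libraries (horizontal log axis) for the 18008 tested genes. Red points are the 156 genes called higher in RT, blue points the 26 called lower and grey points the 17826 not called; the risen genes include Fos, Egr2 and Arc at the top, while falls are fewer and smaller.

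The list of 13 positive controls that the study set for retrieval held 11 genes called higher, 1 called lower and 1 not called. The risen ones were Fos, Egr2, Arc, Sik1, Dusp1, Junb, Nr4a1, Btg2, Egr1, Nfkbia and Per1, the lower one was Sox18, and Rbfox1, a neuronal splicing factor, gave -0.03 ± 0.035 with an FDR of 0.814. The study assembled these genes as ones with changes already reported, and 8 of the 13 were also called without the RUVs factors.

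Fos, which pairs with Jun proteins to form the AP-1 transcription factor, had the smallest FDR. Its UQ counts were 357, 242, 248, 259.5 and 219 in CC and 977, 1257, 1088, 999 and 1072 in RT. The lowest RT library, RT3, lay far above the highest control, CC3. The log2 fold change was 2.06 ± 0.12 (FDR = 4.92e-60), and it stayed between 1.98 and 2.19 under 34 alternative fits with factors of unwanted variation, including those without RT3; without the factors it was 2.02.

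Egr2, a zinc finger transcription factor of the Egr family, had the steepest rise of the well-expressed genes. Its counts were 94.6, 55.1, 41.2, 57.7 and 31.5 in CC and 192, 327, 252.2, 217 and 217 in RT, a log2 fold change of 2.23 ± 0.18 (FDR = 2.82e-33). The groups did not overlap, although CC3 lay well above the other controls. Egr1, the most abundant member of the family, rose far less: counts were 7924, 5392, 5818, 5216 and 4757 in CC and 7181, 9272, 7688, 7916 and 8338 in RT, so that CC3 exceeded RT3, with a fold change of 0.50 ± 0.11 (FDR = 0.000817). The Egr1 call was lost in 5 of 34 alternative fits, among them those without CC8 (0.42, FDR = 0.0126) and without RT5 (0.43, FDR = 0.0189). The quasi-likelihood test (FDR = 0.0226) and DESeq2 (FDR = 0.127) did not make it, nor did the fit without the factors (FDR = 0.83). Egr1 overlaps the annotated gene Gm17507. Egr4 rose by 0.61 ± 0.094 (FDR = 4.93e-08), and Egr3, with 0.07 ± 0.054 (FDR = 0.719), was not called, although without RT6 it was (0.19, FDR = 0.00405). Both were named after their values were seen.

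Arc, whose protein promotes the removal of AMPA receptors from synapses, was the most abundant of the strongly risen genes. It was counted 5081, 3321, 4175, 4057 and 4913 times in CC and 11060, 12860, 10960, 10140 and 10930 times in RT. No RT library came near the highest control, and the log2 fold change was 1.38 ± 0.12 (FDR = 1.40e-27). Per length, Arc went from 27.5 RPKM in CC to 71.7 RPKM in RT, while Fos went from 2.21 to 8.99 RPKM and Egr2 from 0.323 to 1.39 RPKM.

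Of the 29 immediate early transcription factors listed, 28 were tested, 13 were called higher and none was called lower, with a median log2 fold change of 0.21 over the 28 against -0.00121 over all tested genes. Without RT3 and without RT8 the count remained at 13, and the quasi-likelihood test called 9. Junb, another AP-1 subunit, had counts of 2162, 1599, 2065, 1625 and 1942 in CC and 4191, 3990, 3082, 3580 and 3369 in RT (log2 fold change 0.89 ± 0.086, FDR = 1.29e-21). Nr4a1, an orphan nuclear receptor, had 3417, 2505, 3000, 2304 and 2377 in CC and 5355, 5358, 4448, 4763 and 4833 in RT (log2 fold change 0.82 ± 0.098, FDR = 6.63e-14). Neither gene had overlapping groups. The Nr4a1 relatives Nr4a2 and Nr4a3, at 0.18 ± 0.072 (FDR = 0.255) and 0.03 ± 0.049 (FDR = 0.910), were not called.

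Ier2, a small nuclear protein, rose by 0.92 ± 0.082 (FDR = 6.60e-26) with counts of 267, 205, 299.7, 225 and 224 in CC and 681, 485, 456, 447 and 458 in RT. The RT3 value stood above the other RT libraries, which were themselves all above CC. Klf2, a Krüppel-like factor also prominent in endothelium, rose by 0.82 ± 0.090 (FDR = 3.70e-17), and Fosb rose by 0.69 ± 0.088 (FDR = 1.68e-12). A smaller rise was called for Nfil3, a repressor of D-box genes (0.22 ± 0.054, FDR = 0.00622). Atf3 (0.72 ± 0.13), Csrnp1 (0.44 ± 0.093) and Jun (0.15 ± 0.030), picked out after their values were seen, complete the list of 13 called together with Egr4. Npas4, an activity-dependent factor specific to neurons, gave 0.52 ± 0.17 with an FDR of 0.0905 and was not called. Without CC3, Npas4 was called, at 0.74 (FDR = 2.07e-08).

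**Figure D2:**
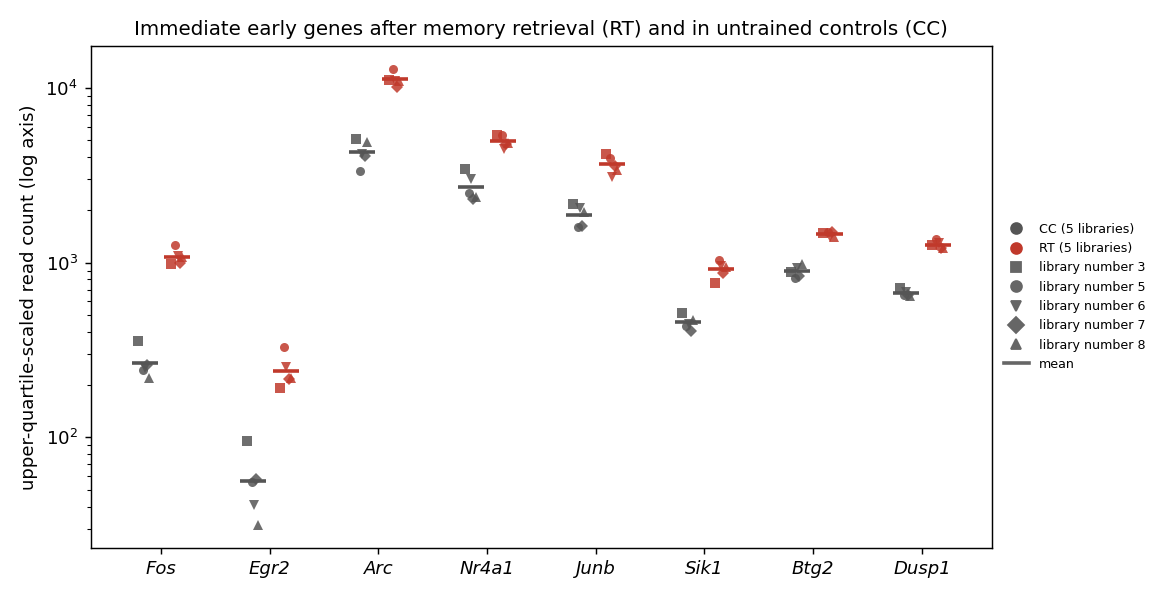
UQ counts (vertical log axis) of Fos, Egr2, Arc, Nr4a1, Junb, Sik1, Btg2 and Dusp1 in the 5 CC libraries (grey) and the 5 RT libraries (red), with a marker shape for each library number and a bar at the group mean. The RT and CC points of each of the 8 genes are separate, with RT on top.

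CREB binds the cAMP response element (CRE), serum response factor the CArG box and Egr proteins a GC-rich site. RefSeq windows of 250 bases up to the transcript start (GRCm38.p6, the start farthest upstream where several are annotated) were searched on both strands for the CRE half-site TGACG, the full CRE TGACGTCA, which contains that half-site on either strand, the Egr site GCGTGGGCG and the CArG box. A match is a description of the sequence and not of binding. A half-site was found in 9 (81.8%) of the 11 called immediate early transcription factors with a window, and of the other 3 motifs none was found in these 11. These 11 were selected by their calls from a list chosen with earlier results known. Their share is therefore a description, and no enrichment over other promoters can be read from it. Among all 27025 promoters searched, 17.8% held a half-site. The full CRE, the Egr site and the CArG box were in 1.6%, 0.54% and 1.41% of all promoters. Of the 18008 tested genes 12719 had a window, of which 25.2% held a half-site, 2.54% a full CRE, 1.05% the Egr site and 1.2% the CArG box, and of the 156 genes called higher 110 had one, with a half-site in 44 (40%). Fewer than 80% of either set had a window, so a comparison of the sets is void. The windows of 6 risen genes are shown because they differ in the number of half-sites and in the presence of a full site, with all matches in capitals and each on the strand of its gene. They lie at chr12:85473640-85473889 (Fos, plus strand), chr10:67535249-67535498 (Egr2, plus), chr8:84978749-84978998 (Junb, minus), chr15:101266596-101266845 (Nr4a1, plus), chr1:134079156-134079405 (Btg2, minus) and chr17:26508473-26508722 (Dusp1, minus).
Fos: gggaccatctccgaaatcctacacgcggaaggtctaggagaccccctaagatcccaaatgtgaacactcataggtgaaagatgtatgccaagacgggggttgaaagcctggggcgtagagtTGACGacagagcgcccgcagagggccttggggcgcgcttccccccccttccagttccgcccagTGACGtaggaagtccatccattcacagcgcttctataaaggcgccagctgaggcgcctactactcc
Egr2: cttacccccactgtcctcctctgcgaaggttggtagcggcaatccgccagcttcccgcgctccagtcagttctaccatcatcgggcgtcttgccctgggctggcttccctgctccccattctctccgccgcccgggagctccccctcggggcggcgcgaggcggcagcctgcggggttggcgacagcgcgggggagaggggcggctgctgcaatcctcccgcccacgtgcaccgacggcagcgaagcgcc
Junb: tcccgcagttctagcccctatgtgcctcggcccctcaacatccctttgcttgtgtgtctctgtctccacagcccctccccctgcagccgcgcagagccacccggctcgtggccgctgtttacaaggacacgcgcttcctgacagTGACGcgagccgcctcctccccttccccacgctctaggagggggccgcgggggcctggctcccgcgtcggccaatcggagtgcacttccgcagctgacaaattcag
Nr4a1: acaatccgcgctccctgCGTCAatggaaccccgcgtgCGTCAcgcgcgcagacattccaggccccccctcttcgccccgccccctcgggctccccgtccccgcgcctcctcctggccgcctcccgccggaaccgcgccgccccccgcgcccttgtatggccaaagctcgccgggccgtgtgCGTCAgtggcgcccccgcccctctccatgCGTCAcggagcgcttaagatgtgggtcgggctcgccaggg
Btg2: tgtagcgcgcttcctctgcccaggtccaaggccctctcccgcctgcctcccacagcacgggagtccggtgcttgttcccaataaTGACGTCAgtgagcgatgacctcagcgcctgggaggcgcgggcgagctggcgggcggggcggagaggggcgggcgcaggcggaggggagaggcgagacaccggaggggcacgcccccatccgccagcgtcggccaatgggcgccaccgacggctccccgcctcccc
Dusp1: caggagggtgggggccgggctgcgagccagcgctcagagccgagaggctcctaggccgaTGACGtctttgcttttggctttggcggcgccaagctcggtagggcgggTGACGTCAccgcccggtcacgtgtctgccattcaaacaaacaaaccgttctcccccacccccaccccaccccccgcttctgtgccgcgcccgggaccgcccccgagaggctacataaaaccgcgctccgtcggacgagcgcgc
Fos holds 2 half-sites, Junb 1 and Nr4a1 4, the last all on the opposite strand, so that on the printed strand they read CGTCA. Btg2 and Dusp1 hold the full palindrome, and the Egr2 window holds none of the letters searched for.

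Among 30 activity-induced effectors, 11 were called higher and none lower, with a median log2 fold change of 0.10; 7 were called by the quasi-likelihood test and 11 without RT3. Btg2, an antiproliferative regulator of mRNA decay, was counted 878, 819.6, 934, 842 and 977 times in CC and 1475, 1491, 1395, 1490 and 1406 in RT (log2 fold change 0.70 ± 0.046, FDR = 2.66e-47). Sik1, a salt-inducible kinase that restrains CREB coactivators, was counted 517, 432, 448, 408 and 470.3 times in CC and 768, 1037, 959, 875 and 937 in RT (log2 fold change 1.04 ± 0.082, FDR = 4.73e-33), the only one of 20 listed CREB and cAMP pathway genes that was called. Cyr61, a secreted matricellular protein, rose from 170.4 ± 15.8 to 324 ± 14.5 (SD, n = 5; log2 fold change 0.90 ± 0.084, FDR = 2.33e-23). None of these genes had overlapping groups. Gadd45g and Gadd45b, stress sensors linked to DNA demethylation, rose by 0.36 ± 0.058 (FDR = 2.23e-07) and 0.38 ± 0.086 (FDR = 0.00139) and were the 2 called among 26 DNA methylation and histone modifiers. The Gadd45b call was lost without CC5 (0.36, FDR = 0.0113). Their groups overlapped, with Gadd45g at 1392, 873, 721, 868 and 719 in RT and 655, 573, 736, 558 and 631 in CC, where RT3 was highest. Dnajb5, a chaperone partner of Hsp70, rose by 0.16 ± 0.039 (FDR = 0.00543). Bdnf (0.04 ± 0.045, FDR = 0.792) and Homer1 (-0.03 ± 0.037, FDR = 0.856), classical activity-regulated synaptic genes counted here over all their isoforms, were not called.

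Of 15 feedback inhibitors of MAP kinases, 5 were called higher, and 3 by the quasi-likelihood test. Of the 29 kinases and other components of the cascades themselves none was called by either edgeR test. In the likelihood ratio test 7 of the 29 had an unadjusted p under 0.05. That share was larger than over all tested genes (1989 of 18008). Dusp1, a nuclear phosphatase of MAP kinases, was counted 715, 655, 678, 648 and 640.2 times in CC and 1252, 1357, 1300, 1213 and 1216 in RT (log2 fold change 0.92 ± 0.093, FDR = 2.77e-20). Its relative Dusp5, specific for ERK, was counted 1191, 913, 891, 808 and 1238 times in CC and 2021, 1630, 1518, 1560 and 1395 in RT (log2 fold change 0.61 ± 0.093, FDR = 2.11e-08). In both genes all RT libraries were above all CC libraries. Errfi1, an inhibitor of EGF receptors, rose by 0.30 ± 0.041 (FDR = 1.52e-10), and Spry1, a Sprouty inhibitor of receptor tyrosine kinases, by 0.25 ± 0.053 (FDR = 0.000463), with the highest CC library inside the RT range in both. The fifth called member was Spry4.

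**Figure D3:**
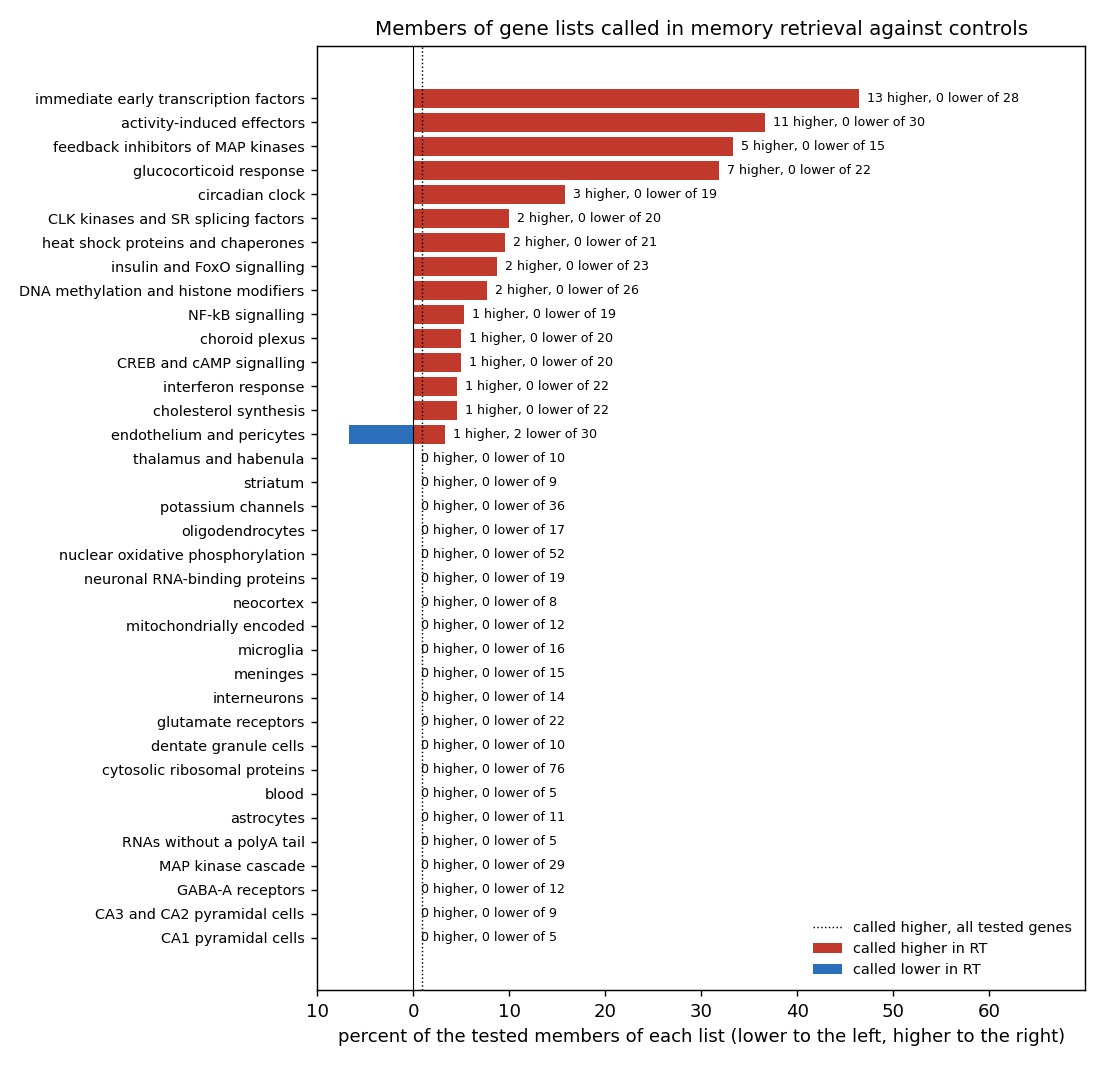
Percent of the tested members of each of 36 gene lists called higher in RT (red, to the right) and lower (blue, to the left), with the counts beside each bar and a dotted line at the 0.866% called higher over all tested genes. Immediate early transcription factors lead with 13 of 28, and 21 lists, among them those of neuronal and glial markers, have no called member.

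Genes that glucocorticoid receptors induce formed the fourth group with many rises: 7 of 22 were called higher and none lower (6 by the quasi-likelihood test, 6 without RT3), with a median of 0.11 on the log2 scale. Arl4d, a small GTPase, was counted 359, 372, 391, 302 and 404 times in CC and 803, 557, 542, 556 and 471 in RT (log2 fold change 0.58 ± 0.062, FDR = 7.51e-18). Nfkbia, the inhibitor that holds NF-kB in the cytoplasm, was counted 775, 868, 779.5, 752 and 952 times in CC and 1445, 1173, 1063, 1146 and 1058 in RT (log2 fold change 0.46 ± 0.047, FDR = 3.32e-19). All RT libraries lay above all controls in these genes, and RT3 was the highest in each. Nfkbia was the only called gene of 19 in NF-kB signalling.

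Ddit4, an inhibitor of mTOR complex 1, was counted 2249, 2299, 2515, 2071 and 2927 times in CC and 3983, 3574, 3256, 3411 and 2535 in RT (log2 fold change 0.43 ± 0.050, FDR = 1.18e-14). RT8 fell inside the control range. Sgk1, a kinase related to Akt, was counted 2967, 2771, 2654, 2895 and 3254 times in CC and 3739, 3789, 3881, 3542 and 3343 in RT (log2 fold change 0.37 ± 0.049, FDR = 7.37e-11), with no overlap. Ddit4 and Sgk1 were the 2 called of 23 genes of insulin and FoxO signalling. Per1, a clock gene with a glucocorticoid-responsive promoter, was counted 4570, 3505, 3988, 3473 and 3968 times in CC and 4412, 5326, 4855, 5312 and 4772 in RT, where CC3 lay above RT3 (log2 fold change 0.35 ± 0.072, FDR = 0.000254). Of the 19 clock genes, Per1, Nfil3 and Gm129, which encodes a repressor of Clock and Arntl, were called higher (Gm129 by 0.25 ± 0.062, FDR = 0.00668), and 16 were not called; the quasi-likelihood test kept 1 of the 3. The Nfil3 call was lost without any 1 of 5 libraries and the Gm129 call without any 1 of 9.

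Outside these lists, Tm6sf2, a membrane protein of lipid transport, was counted 168, 143, 158, 186 and 218 times in CC and 283, 336, 400.2, 299 and 347 in RT (log2 fold change 0.97 ± 0.073, FDR = 1.22e-36). Apold1, an early-response gene of endothelium, was counted 169, 155, 207.1, 144 and 134 times in CC and 302, 369, 344, 300.3 and 367 in RT (log2 fold change 1.05 ± 0.10, FDR = 1.12e-22). Both had groups that did not overlap and were called without the RUVs factors as well. The same held for 4 further genes: Zglp1, a GATA-type zinc finger protein (51.0 ± 4.72 in CC, 115 ± 8.77 in RT), Stac3, an adaptor of calcium channels (139 ± 12.2 and 232 ± 35.9), Dnd1, an RNA-binding protein of the germ line (77.4 ± 5.24 and 141 ± 13.7), and Hsd17b1, a steroid dehydrogenase (13.7 ± 3.26 and 31.5 ± 5.09; mean ± SD, n = 5 each). Their log2 fold changes were 1.12 ± 0.12, 0.78 ± 0.093, 0.82 ± 0.10 and 1.25 ± 0.21. Dnd1 overlaps Wdr55 in the annotation, so reads of the pair could be shared. Hsd17b1 was not past the threshold in the quasi-likelihood test (FDR = 0.0121) or in DESeq2 (FDR = 0.0294).

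The splicing kinases Clk1 and Clk4, which phosphorylate SR proteins, rose by 0.24 ± 0.043 (FDR = 7.35e-06) and 0.17 ± 0.037 (FDR = 0.000923), with no overlap between the groups, and the other 18 members of their list were not called. Dnajb1, a cochaperone induced by heat shock, rose by 0.24 ± 0.055 (FDR = 0.00292), and Dnajb1 and Dnajb5 were the only ones called of 21 heat shock genes. Irf9, which carries interferon signals to the nucleus, rose by 0.38 ± 0.057 (FDR = 9.11e-09), alone of 22 interferon response genes. Cyp51, an enzyme of cholesterol synthesis, rose by 0.14 ± 0.031 (FDR = 0.00143), alone of 22 in that pathway. The median log2 fold changes of these 4 lists lay between -0.00795 and 0.0318. The calls of Dnajb1 and Dnajb5 were each lost without any 1 of 5 libraries, those of Clk4 without CC6, RT6 or RT8 (0.14 to 0.15) and that of Cyp51 without CC8 or RT5 (0.10 and 0.12).

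At a microRNA locus on chromosome 11 the host gene and 1 of its 2 hairpins rose. Mir132 and Mir212 sit between exons of the noncoding gene 1700016P03Rik (11:74986062-74991135, plus strand of mm9), which was counted 146, 128, 131, 131 and 115 times in CC and 410.4, 308, 269.7, 274 and 199 in RT. The annotated Mir132 hairpin, at 74987167 to 74987267, was counted 34.5, 28.4, 30.9, 31.5 and 34.9 times in CC and 94.5, 93.3, 58.4, 68.4 and 48.2 in RT. Every RT library was above every CC library in both, with log2 fold changes of 1.06 ± 0.088 (FDR = 5.41e-30) and 1.10 ± 0.15 (FDR = 3.18e-11). Mir212, at 74986890 to 74986980, had mean counts of 15.8 ± 6.04 in CC and 26.8 ± 8.05 in RT (SD, n = 5) and was not called, with a log2 fold change of 0.58 ± 0.21 (FDR = 0.171). Ovca2, a protein-coding gene that overlaps 1700016P03Rik on the opposite strand, rose by 0.32 ± 0.061 (FDR = 2.42e-05), and whether counting used the strand is not given in the sources used here. In libraries of polyA-selected, size-selected fragments these reads come from the primary transcript, so mature miRNAs were not measured. The 4 mature products are shown for the shared seed of the 3p arms (RefSeq, GRCm38.p6, chromosome 11, plus strand; seed, bases 2 to 8, in capitals). Outside the named-gene rule, Mir541 on chromosome 12 was called higher (0.85 ± 0.21, FDR = 0.00478) and Mir219-2 on chromosome 2 lower (-0.95 ± 0.17, FDR = 5.61e-06), from mean counts of 16.7 in CC and 25.8 in RT for the first and 48.3 and 28.6 for the second, with overlapping groups in both.
mmu-miR-132-3p: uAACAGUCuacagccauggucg
mmu-miR-212-3p: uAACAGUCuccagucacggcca
mmu-miR-132-5p: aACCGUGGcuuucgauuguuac
mmu-miR-212-5p: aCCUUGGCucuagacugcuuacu

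The falls were fewer and mostly small. Sox18, a transcription factor of endothelial cells, had the largest of the well-expressed genes: it was counted 585, 594, 628, 607 and 619 times in CC and 586, 347, 345, 438 and 383 in RT. RT3 lay within the CC range, and the other 4 RT libraries were all below it. The log2 fold change was -0.63 ± 0.069 (FDR = 6.30e-17), and between -0.68 and -0.58 in the 34 alternative fits with factors of unwanted variation, past the threshold in all 34. Without the factors it was -0.53 and not called (FDR = 0.356). Sox17, its endothelial relative, was counted 290.0, 340.2, 324, 286 and 228 times in CC and 273, 223, 215, 276 and 257 in RT, with overlapping groups and a log2 fold change of -0.28 ± 0.070 (FDR = 0.00943). That call was lost in 21 of 34 alternative fits. Of 30 genes of endothelium and pericytes, Klf2 was called higher and Sox17 and Sox18 lower, with a list median of -0.05 and no call for Pecam1, Cdh5, Cldn5 or Pdgfrb. In the likelihood ratio test 13 of the 30 had an unadjusted p under 0.05, a larger share than over all tested genes (1989 of 18008). Fold changes were above 0 in 7 of the 30. The summed counts of the list were 49586 in RT3, 39694 to 41238 in the other RT libraries and 38909 to 44678 in CC; whether fewer cells of a type or less RNA per cell lies behind a fall cannot be told apart in bulk tissue.

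Necab1, a calcium-binding protein of some hippocampal and cortical neurons, was counted 3163, 2494, 2407, 2634 and 1807 times in CC and 823, 1915, 2291, 1921 and 2430 in RT. RT3 was far below the rest and CC8 lay among the RT libraries. The log2 fold change was -0.25 ± 0.044 (FDR = 4.19e-06), and without RT3 it was -0.27, still called; the call was lost in 6 of the 34 alternative fits. Camk2d, a subunit of the calcium and calmodulin-dependent kinase II, was counted 2715, 3379, 2465, 2429 and 1308 times in CC and 1431, 1926, 2124, 1876 and 2063 in RT. CC8 was below every RT library, while the other 4 controls were above all of them. Its log2 fold change was -0.25 ± 0.054 (FDR = 0.000636), and an exact permutation test of the UQ counts, two-sided, gave p = 0.159. Without CC8 the log2 fold change of Camk2d was -0.47 (FDR = 4.45e-07) and without CC5 -0.17 (FDR = 0.00951); the call was lost in 6 of the 34 alternative fits, among them the quasi-likelihood test (FDR = 0.0150). CC8 also had the lowest summed counts of the control libraries for neocortical markers, 7370 against 9601 to 9995, and for CA1 markers, 34453 against 43445 to 47543. The part of these CC8 sums in the values of Necab1, Camk2d, Mef2c, Vwc2l, Dsc3 and Rxfp1 was not tested.

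Mef2c, a transcription factor that limits synapse number, was counted 6798, 7500, 6474, 6552 and 5272 times in CC and 4660, 5402, 6046, 5742 and 6060 in RT (log2 fold change -0.18 ± 0.041, FDR = 0.00180), with CC8 again inside the RT range. Tfrc, the transferrin receptor, was counted 5965, 5030, 6016, 5669 and 5004 times in CC and 3743, 4655, 4717, 4830 and 5149 in RT (log2 fold change -0.21 ± 0.055, FDR = 0.00943), with RT8 inside the CC range. Gpr158, an orphan receptor of neurons, changed by -0.11 ± 0.026 (FDR = 0.00766). The Mef2c call was lost without CC5, without CC6 and without RT5, and the Tfrc and Gpr158 calls in 21 and 28 of the 34 alternative fits.

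Jrk, a nuclear protein related to transposases, and Lcmt2, a tRNA-modifying enzyme, were also called lower. Jrk was counted 569.5, 600.1, 587, 548 and 635 times in CC and 467, 486, 475, 511 and 489 in RT (log2 fold change -0.27 ± 0.059, FDR = 0.000889), with no overlap, although the call was lost without RT6 (-0.25, FDR = 0.0109). Lcmt2 was counted 485, 531, 467, 446 and 470.3 times in CC and 469, 349.5, 357, 390.3 and 389.9 in RT, where RT3 matched the controls (log2 fold change -0.35 ± 0.062, FDR = 7.03e-06). The remaining falls named by the rule were Gm9752 (-0.46 ± 0.081), Gm17254 (-0.35 ± 0.083), 2900052L18Rik (-0.31 ± 0.074), Fam101b (-0.27 ± 0.062) and Gm5113 (-0.25 ± 0.052). Every RT library lay below every CC library for Gm9752, 2900052L18Rik and Gm5113, and the groups overlapped for Gm17254 and Fam101b. Of the 34 alternative fits, 3 lost the call of Gm9752, 16 that of Gm17254, 12 that of 2900052L18Rik (-0.21 without RT6, FDR = 0.191), 13 that of Fam101b and 9 that of Gm5113. The only fall called without the RUVs factors was the weakly expressed AA413626 (36.5 ± 5.30 in CC and 16.6 ± 2.10 in RT, SD, n = 5; log2 fold change -1.05 ± 0.20). The groups of AA413626 did not overlap.

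**Figure D4:**
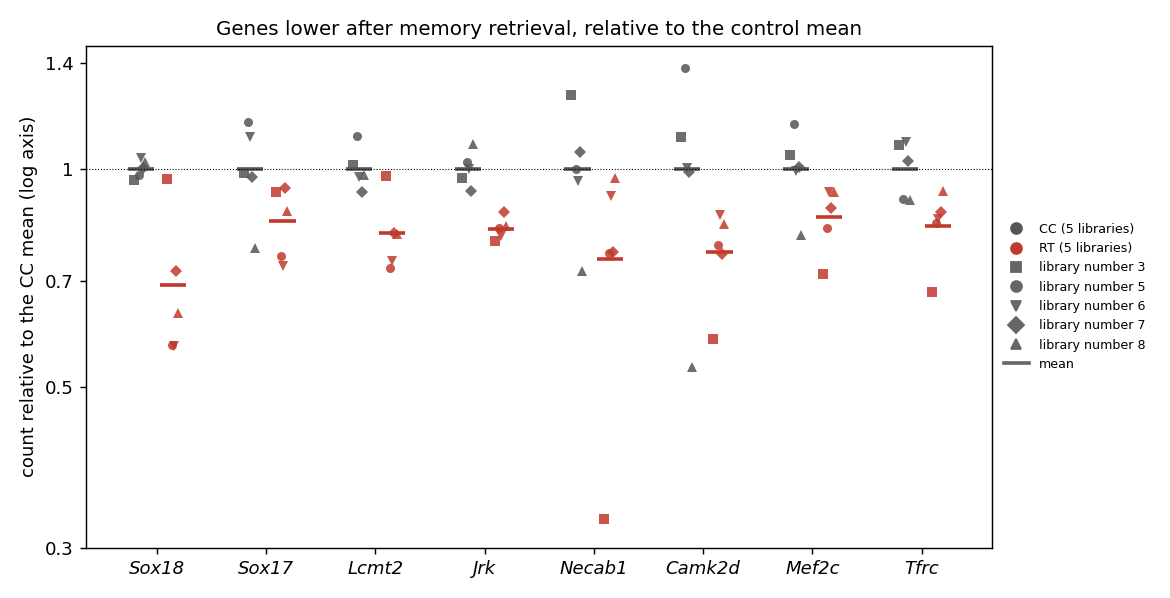
UQ counts of 8 genes called lower in RT, each divided by its CC mean (vertical log axis), in CC (grey) and RT (red), with a marker shape for each library number and bars at the group means. Of the 8, only Jrk shows separate groups; RT3 (red square) is close to the controls for Sox18 and Lcmt2 and the lowest RT library for Necab1, Camk2d, Mef2c and Tfrc, and CC8 (grey triangle) is lowest of the controls for Sox17, Necab1, Camk2d, Mef2c and Tfrc.

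No member was called in either direction among 22 glutamate receptors, 12 GABA-A receptors, 36 potassium channels and 19 neuronal RNA-binding proteins, where the list medians were -0.03, -0.03, -0.02 and -0.02. The same was true of the tested markers of CA1 (5), CA3 and CA2 (9), dentate granule cells (10), interneurons (14), astrocytes (11), oligodendrocytes (17), microglia (16), meninges (15) and blood (5), and of thalamus and habenula (10), neocortex (8) and striatum (9). The lists of cytosolic ribosomal proteins (76 tested), nuclear oxidative phosphorylation (52), mitochondrially encoded genes (12) and RNAs without a polyA tail (5) had no call either. Over the 21 lists without a call, 391 genes were tested, and 39 had an unadjusted p under 0.05 in edgeR's likelihood ratio test (1989 of all 18008 tested). The quasi-likelihood test called 0 of them. All 66 of its calls were among the 182, so this follows from the choice of lists without a call. RT3 differed in several of these lists before the RUVs factors were taken out. Its summed count was 528910 for ribosomal proteins (288146 to 349044 in the other RT libraries and 292757 to 336354 in CC), 587071 for oxidative phosphorylation (384551 to 430374 and 383093 to 434332) and 75043 for meninges (26926 to 30135 and 25789 to 56591). The median log2 fold change of ribosomal proteins was 0.19 with UQ scaling alone and 0.02 in the RUVs model. The part of these RT3 values in the genes described above was not tested, other than by leaving RT3 out, which gave 186 calls of which 160 were among the 182.

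Choroid plexus genes, which mark the epithelium that makes cerebrospinal fluid, had 1 called member of 20. All 20 fold changes were above 0, with a median of 0.54 on the log2 scale. Ttr, the thyroxine carrier transthyretin and a main product of that tissue, was counted 547, 1048, 1120, 1153 and 803 times in CC and 5735, 2883, 1072, 2363 and 12260 in RT. RT6 lay within the CC range and RT8 was the highest. The log2 fold change was 1.83 ± 0.36 (FDR = 8.49e-05), the call was lost without RT5 (1.50, FDR = 0.0331) and without RT8 (1.37, FDR = 0.0188), and the quasi-likelihood test (FDR = 0.0864) and DESeq2 (FDR = 0.162) did not make it. The summed counts of the list were 18957, 15085, 12145, 13591 and 31320 in RT and 11476 to 12731 in CC, and 15309 to 86742 in FC. With both number 3 libraries of RT and FC left out 4 of the 20 were called, and without RT8 none was. How much of the tissue was included in each dissection was not tested.

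**Figure D5:**
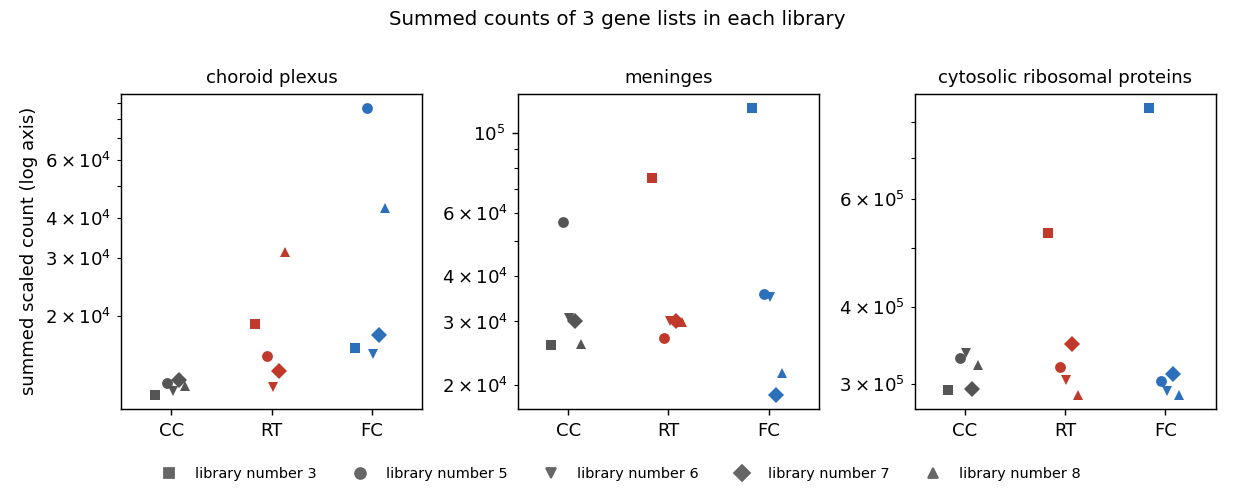
Summed UQ counts (vertical log axes) of 20 choroid plexus genes, 15 meningeal genes and 76 cytosolic ribosomal protein genes in each CC (grey), RT (red) and FC (blue) library, with a marker shape for each library number. RT8 (31320) and FC5 (86742) are the highest in choroid plexus within their groups, and RT3 and FC3 are apart in meninges and ribosomal proteins.

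Retrieval and training were compared directly in RT vs FC. Of the tested genes 22 were called (0.122%), 8 higher (0.0444%) and 14 lower (0.0777%) in RT. Same-numbered RT and FC libraries deviated together, and with the number as a block 82 genes were called (34 higher, 48 lower); the quasi-likelihood test called 0 (1811 at an unadjusted p under 0.05) and DESeq2 4. Without the block, none of the listed transcription factors of the early response was called, nor any effector, feedback inhibitor or glucocorticoid-responsive gene. With the block, 3 of the 28 immediate early transcription factors were called lower in RT. The block left fewer residual degrees of freedom than the 7 of the main fit, and the quasi-likelihood test was not run with it. The calls and FDRs with the block are therefore weakly supported. Egr2 differed by -0.44 (95% interval -0.739 to -0.137, FDR = 0.182) without the block and by -0.45 with it (FDR = 5.63e-07). Fosb differed by -0.26 (95% interval -0.421 to -0.09, FDR = 0.147) and by -0.27 with the block (FDR = 0.000188). Egr4 differed by -0.24 (95% interval -0.424 to -0.063, FDR = 0.234) and by -0.26 with the block (FDR = 0.00348). Fos was not called in either fit, at -0.30 (95% interval -0.524 to -0.08, FDR = 0.225) and -0.32 with the block (FDR = 0.0188), nor was Arc, at -0.10 (95% interval -0.332 to 0.123, FDR = 0.821) and -0.12 (FDR = 0.652). Zglp1 was higher in RT by 0.45 (95% interval 0.245 to 0.661, FDR = 0.0125), past the threshold only with the block (0.44, FDR = 0.00848). FC vs CC, which shares the CC libraries, gave 2.36 for Fos, 1.48 for Arc and 0.95 for Fosb, where RT vs CC gave 2.06, 1.38 and 0.69.

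The 14 genes lower in RT than in FC included 8 of the 20 choroid plexus genes (12 with the block), among them Ttr (-1.67 ± 0.34, FDR = 0.00204), Kcnj13, a potassium channel of that epithelium (-1.29 ± 0.23, FDR = 0.000152), Folr1, a folate receptor (-1.21 ± 0.23, FDR = 0.000649), and Aqp1, a water channel (-1.06 ± 0.23, FDR = 0.00644). FC5 and FC8 were the highest libraries: Ttr was counted 46550 times in FC5 and 19660 in FC8, and 2332 to 6174 times in the other 3. Among the rest of the 14, Abca4 and 1500015O10Rik were also highest in FC5 (527.6 and 520.6) and next in FC8 (265 and 263.3). Wfdc2 and Krt18 were highest in FC5, Tuba1c in FC8 and Xpo4 in CC7. Without FC5, 3 genes were called in RT vs FC. The 8 genes higher in RT were Vwc2l, Rxfp1, Dsc3, Gbp3, Slc38a5, Tmem200a, Bach2 and Gm11223, with differences from 0.22 to 0.52. None of the 8 was called in RT vs CC, where changes ran from -0.03 (Tmem200a) to 0.13 (Bach2). In FC vs CC all 8 were below 0, from -0.14 (Bach2) to -0.49 (Rxfp1), and all but Slc38a5 and Bach2 were called lower. Vwc2l, a secreted protein with von Willebrand factor domains, was counted 274.5, 374.0, 574.4, 463.7 and 435.3 times in RT and 146.9, 352.9, 292.6, 354.9 and 382.9 times in FC, so that RT was above FC within each library number. CC8, at 171.0, was far below the other controls for Vwc2l (536.4 to 618.0). The same held for Dsc3 (29.25, other controls 153.1 to 204.5) and Rxfp1 (73.13, other controls 180.1 to 268.8).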

How the data were processed

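Per the labels and the study's methods, the authors aligned 100-bp read pairs to mm9 with GSNAP and obtained a read number for each Ensembl gene from HTSeq 0.6.1, and the deposited values are raw counts of all 15 libraries in 1 table. Whether strand was used in counting is not given in the sources used here. All 37310 gene identifiers were matched to GENCODE vM1 for names, biotypes and overlaps. Groups were taken from the labels, with 5 libraries each.

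Following the study, a gene was kept when over 5 libraries held over 10 reads of it, counts were scaled by upper-quartile factors, 5 factors of unwanted variation were estimated by RUVs from 625 negative control genes, and the negative binomial model of edgeR 4.0.16 (R 4.3.3) was fitted, with likelihood ratio tests. Of the 625 control genes, which themselves set the factors, 3 were called in RT vs CC, against 182 of all 18008. In the same test 53 of the 625 had an unadjusted p under 0.05, against 1989 of all 18008. An FDR of at most 0.01 (Benjamini-Hochberg) made a call, and a standard error is the fold change divided by the root of its test statistic. Alternatives included DESeq2 1.42.0, a quasi-likelihood test in edgeR and svaseq from sva 3.50.0. The fit was tested on simulated data.

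Same-numbered RT and FC libraries had correlated deviations from their group means (0.381 to 0.919 in 5 of 5 numbers over 14990 genes with a mean UQ count of at least 50). Pairs of unlike numbers had a median correlation of 0.206 and a maximum of 0.668. Of the 5 RT libraries, 4 correlated most with the FC library of their own number. The numbers were therefore used as a block for RT vs FC, although the pairing was not complete. That block was fitted to all 15 libraries, so the CC libraries were blocked by number as well. RT and CC libraries of the same number had lower correlations, given further on. Replicates of a group differed by far more than counting noise (chi-square per degree of freedom 6.4 to 445 in 30 pairs).

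Genes were named by a rule: the study's positive controls, the 15 largest rises and falls (14 falls exist) among called genes with a mean UQ count of at least 100 and all RT libraries on 1 side of the CC mean, up to 4 members of each list by p, every gene called without RUVs factors and up to 8 genes per direction in RT vs FC. The comparison, the gene lists and the rule were chosen with earlier results of these data known. Other genes were named after their values were seen. Promoter and miRNA sequences are from RefSeq (GRCm38.p6).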

Additional observations from a re-analysis of the deposited data

Results flagged for a closer look

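Within groups, 148 sets of 5 values were tested for 1 library far from the other 4 by Dixon's gap test, and chance flags about 1 in 20. Of the 12 found, 9 were in RT3. RT3 was the high library for Arl4d (803, others 471 to 557), Gadd45g (1392, others 719 to 873) and Ier2 (681, others 447 to 485), and the low one for Gm5113 (272, others 587 to 635), all as UQ counts. The summed UQ counts of RT3 stood out for cytosolic ribosomal proteins (528910), nuclear oxidative phosphorylation (587071), meninges (75043) and endothelium and pericytes (49586, others 39694 to 41238), as did the interquartile range of its relative log expression (0.4348). The Arl4d, Gadd45g and Ier2 calls held without RT3. RT6 was low for 2900052L18Rik (173, others 216 to 226), CC8 high for Jun (7584, others 5429 to 5636) and CC5 high for the meningeal sum (56591, others 25789 to 30597).

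RT and FC differed, by the test of that difference in the RUVs model (edgeR likelihood ratio test), in 18 of the genes named in the report or by its rule. Lower in RT on the log2 scale were Ttr (-1.665), Kcnj13 (-1.291), Folr1 (-1.211), Aqp1 (-1.057), Abca4 (-0.8245), 1500015O10Rik (-0.7792), Cldn2 (-0.6968), Tuba1c (-0.4833), Lbp (-0.3759) and Xpo4 (-0.3065). Higher in RT were Dsc3 (0.5202), Rxfp1 (0.4748), Vwc2l (0.465), Gbp3 (0.4038), Slc38a5 (0.3429), Tmem200a (0.3039), Bach2 (0.2724) and Gm11223 (0.2166). The quasi-likelihood test called none of them.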

How the results depend on the processing

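The 182 calls of RT vs CC became 311 at an FDR of 0.05, 66 by the quasi-likelihood test, 85 by DESeq2, 85 with 1 RUVs factor and 55 by the quasi-likelihood test without RT3 (added after the data were seen), and 142 to 266 when 1 library was left out. Of the 182, 80 were among the DESeq2 calls, 160 among those without RT3 and 165 among those without RT3 and FC3. RT and CC libraries of the same number did not deviate together (correlations -0.509 to 0.111), so the numbers do not pair them, and a replicate block gave 212 calls. All fits with the block and RUVs factors had fewer residual degrees of freedom than the 7 of the main fit. The one without the number 3 libraries had the fewest. Their counts of calls are therefore weakly supported. The 19 calls without RUVs factors became 11 by the quasi-likelihood test, 43 with RT and CC libraries alone, 67 without RT3 and FC3 and 14 to 46 with 1 library left out, the highest without FC3. The 22 calls of RT vs FC became 98 at an FDR of 0.05, 0 by the quasi-likelihood test, 4 by DESeq2, 82 with the replicate block, 122 with the block and no number 3 libraries (added later), 50 without RT3 and FC3, 0 with 1 RUVs factor (1053 at an unadjusted p under 0.05), 1 with 3, 41 with 6, 112 with 10, 39 with all genes as controls, 2 with RUVg, 0 by the quasi-likelihood test without RT3 (1451 at an unadjusted p under 0.05) and 3 to 93 with 1 library left out (3 without FC5, 93 without RT8).

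Of 2244 refits of the fold changes of 66 genes, 1962 kept direction and side of the threshold, 267 lost the call, 5 gained it and 10 changed sign, all in genes not called. These were Rbfox1 (0.00434 without CC8, 0.00432 without RT6), Bdnf (-0.006348 without RT3, -0.00825 with RUVg, -0.00633 by the quasi-likelihood test without RT3), Egr3 (-0.002238 with RUVg), Homer1 (0.0001581 without RT5, 0.01858 with the block and no number 3 libraries) and Nr4a3 (-0.005307 without CC6, -0.02331 without RT5). With 1 library left out, Rbfox1 ranged from -0.0571, Bdnf to 0.09992, Homer1 from -0.06175 and Nr4a3 to 0.06741. The cause was not tested. With 33 of the 182 called genes at a mean UQ count under 100, low counts limit the precision of those values.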

Other observations

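Of 5 genes picked out after their values were seen and tested as no list, 3 were higher and 2 lower in RT vs CC. Dll4 and Dll1, ligands of Notch, rose by 0.42 ± 0.091 (FDR = 0.000861) and 0.27 ± 0.065 (FDR = 0.00536) on the log2 scale, and Nrarp, a feedback inhibitor of Notch, by 0.26 ± 0.051 (FDR = 6.19e-05). Hes5, a Notch target in neural progenitors and astrocytes, fell by 0.43 on that scale (SE 0.076, FDR = 4.79e-06), and Id1, a helix-loop-helix inhibitor found in endothelium and astrocytes, fell by 0.32 (SE 0.059, FDR = 2.00e-05). The UQ counts of Dll1, Nrarp, Hes5 and Id1 overlapped between the groups, every RT library lay above every CC library for Dll4, and of the 5 only Nrarp was past the threshold in the quasi-likelihood test (FDR = 0.00981).

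Tob1 and Tob2, of the same antiproliferative family as Btg2, rose by 0.40 ± 0.051 (FDR = 3.24e-12) and 0.53 ± 0.056 (FDR = 2.99e-18), and in both every RT library lay above every CC library. Tiparp, an ADP-ribosyltransferase, rose by 0.48 ± 0.046 (FDR = 8.20e-22) with the same separation.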
